A study of Mus musculus with 18 samples.

Results

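Cathepsins and legumain are the proteases of the lysosome, and 10 of their genes, chosen by name, were examined here: *Ctsl*, *Ctsb*, *Ctsk*, *Ctss*, *Ctsz*, *Ctsh* and *Ctsc* (cysteine cathepsins), *Ctsd* (an aspartic cathepsin), *Ctsa* (a serine carboxypeptidase) and *Lgmn* (legumain). The table of differentiation stages held 7 of them among 20310 genes, while *Ctsb*, *Ctsd* and *Ctss* were not analysed here in the stages; the table of fibroblast libraries held all 10 among 20495 genes. The study followed mouse ESCs of the 129 strain, which carry a GFP reporter in the *Brachyury* gene and were grown on fibroblast feeders, as they made blood in culture. The stages used here were ESC, mesoderm (MES, Brachyury-GFP positive and FLK1 negative), hemangioblast (HB, positive for both), hematopoietic progenitors (HP, sorted for CD41) and macrophages (MAC, sorted for CD11b after CD41-positive cells had matured), with 2 replicates each that the authors combined into a single value. A second experiment asked what transcription factors do in mouse embryonic fibroblasts (MEFs). It had 8 single libraries: untreated MEFs (uFIB) and MEFs given *Scl*, another name of *Tal1*, with *Lmo2* (SL), *Scl*, *Fli1*, *Gata2* and *Lmo2* (SFGL) or the same mix without *Scl* (FGL). Each was sampled on day 12 and on day 21. The MEFs were wild type or carried a doxycycline-inducible TAL1 cassette, and the labels do not say which library came from which.

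Lysosomal proteases are made as inactive precursors, carried to the lysosome by receptors for mannose 6-phosphate, and cut into active enzymes at low pH, partly by each other and by legumain. Endopeptidases such as cathepsins L, S, K and D cut within proteins, whereas cathepsins A, C, H and Z remove residues from chain ends. Macrophages use them to degrade what they engulf, fibroblasts to turn over matrix, and granulocytes and mast cells to activate the proteases stored in their granules.

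RefSeq promoter windows, from 250 bases before to 50 bases after each annotated start on GRCm38.p6, were given for 8 of the 10 genes, in 10 windows; *Ctsb* and *Ctsh* had none. The letters CACGTG are the core that the MiT/TFE factors, regulators of lysosome genes, are known to bind, and GTCACGTG is the longer form found in many lysosomal promoters. Every GTCACGTG also counts as a CACGTG, and both strands were searched. The longer form was found in the windows of *Ctsa*, *Ctsd* and *Lgmn*, 3 of the 10, and in 2.25% of all 32851 windows, while CACGTG was in 4 of the 10, with *Ctsl* as the fourth gene, and in 7.15% of all windows. The stretches with the longer form are shown because only these 3 of the 8 genes hold it, 5′ to 3′ on the strand of the gene, with the match in capitals:
Ctsa, chr2:164833713-164833792, plus strand: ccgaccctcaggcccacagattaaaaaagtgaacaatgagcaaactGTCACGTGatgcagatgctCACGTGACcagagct
Ctsd, chr7:142387898-142388077, minus strand: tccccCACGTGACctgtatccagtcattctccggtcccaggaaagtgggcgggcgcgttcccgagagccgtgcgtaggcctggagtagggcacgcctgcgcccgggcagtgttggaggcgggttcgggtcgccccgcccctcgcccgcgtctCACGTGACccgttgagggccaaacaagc
Lgmn, chr12:102439093-102439172, minus strand: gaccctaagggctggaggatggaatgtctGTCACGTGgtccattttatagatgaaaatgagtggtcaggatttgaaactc
In *Ctsa* both matches lie close to the start, which is the inner of the RefSeq starts of the gene, 900 bases inside its GENCODE start. For *Lgmn* the start is also the inner one, 721 bases inside. The locus given for *Lgmn* in the stages ends at 102439697, nearer to its outer RefSeq start (102439728) than to this inner one (102439092). Which RefSeq start the measured *Ctsa* rows belong to was not examined. The single RefSeq start of *Ctsd* is 211 bases inside its GENCODE start. The other windows of *Ctsa* and *Lgmn* held no match to GTCACGTG.

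*Ctsk* and *Ctss* lie side by side on chromosome 3, on the same strand and 17423 bases apart, and their windows held different letters. That of *Ctsk* matched TTGCNNAA, part of the C/EBP motif, which 10.8% of all windows hold, and that of *Ctss* matched GAGGAAGT, a purine-rich ETS motif of the kind PU.1 binds, which 3.20% hold. They are shown because the genes are neighbours that differed in level in every MEF library, with the match in capitals:
Ctsk, chr3:95499110-95499209, plus strand: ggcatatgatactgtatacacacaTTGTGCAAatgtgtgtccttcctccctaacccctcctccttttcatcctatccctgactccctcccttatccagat
Ctss, chr3:95526726-95526795, plus strand: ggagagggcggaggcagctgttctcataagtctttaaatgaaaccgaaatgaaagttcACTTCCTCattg
GAGGAAGT was also in the window of *Ctsc*, TTGCNNAA also in that of *Ctsl*, and TATAAA in those of *Ctss* and *Lgmn*, against 13.6% of all windows. A match describes letters and is no binding site, and no window shows that a factor is absent.

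All values are FPKM, fragments scaled to transcript length and to the size of the library, so that levels of different genes can be set side by side within a table. With 1 value per stage and 1 library per MEF condition no spread between replicates was available and no test was run, and whether neighbouring levels differ beyond replicate error cannot be told. Differences are given on log2(FPKM + 1), and a gene is called higher or lower when it differed by at least 2-fold on that scale and had at least 1 FPKM in the higher group. The depth behind each value is not held by FPKM. The sorted stages carried the markers of their names: *Pou5f1* was at 383 FPKM in ESC, *T* (Brachyury) at 142 in MES, *Kdr* (FLK1) at 77.6 in HB and *Itga2b* (CD41) at 62.5 in HP. In MAC, 11 of 11 macrophage markers in the table were called higher than in HP, beside 33.4% of all genes tested. Among them were *Csf1r* at 234, *Emr1* at 353 and *Mpeg1* at 543 FPKM in MAC. Of the 11, 6 were under 1 FPKM in HP and entered the count only through MAC. The FGL libraries went against their label in part, since *Tal1*, which is not in that mix, was at 7.04 FPKM at day 12 and *Fli1*, which is, was at 3.35 at day 21 against 3.02 in uFIB. In SL at day 12 *Fli1* and *Gata2*, which are not in that mix, were at 46.7 and 68.8 FPKM, against 3.43 and 1.80 in uFIB. The uFIB library of day 21 held transcripts of neutrophil genes, with *S100a8* at 126 FPKM against 2.97 at day 12.

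Along the blood pathway the summed level of the 7 genes was far lower in the 4 stages before MAC than in MAC. From ESC to HP it was 79.9, 128, 163 and 121 FPKM, which is 0.0442% to 0.0807% of all FPKM in those stages. In MAC it was 11786 FPKM, or 3.09% of all FPKM. All 7 genes were called higher in MAC than in HP, where 33.4% of all genes tested were called higher, and their median log2 difference was 5.03 against 0.45 over all genes tested. *Ctsk* and *Ctsh* were under 1 FPKM in HP and entered the count only through MAC. The deposited FPKM total of MAC was larger than that of the other stages, and with every stage scaled to the same upper quartile the median of all genes became -0.21 and the genes called higher and lower 19.5% and 24.8%, as against 33.4% and 13.9%; on the same FPKM total they were 15.9% and 31.9%. The 7 genes were called higher on both scales, by 1.73 to 6.75 and by 1.43 to 6.46 against 2.46 to 7.49 as deposited. A lower or higher level in a population can come from fewer cells of a type or from less RNA per cell, and bulk samples cannot tell these apart.

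**Figure D1:**
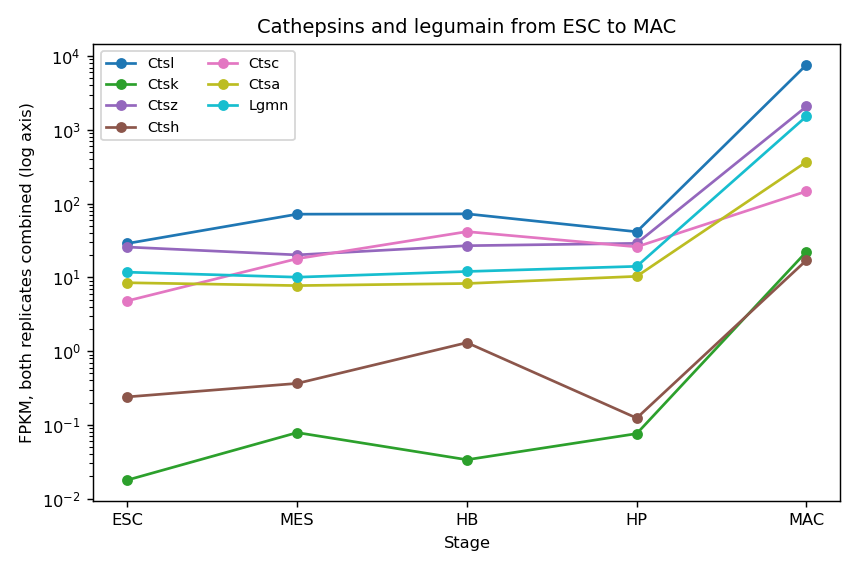
FPKM of the 7 genes held by the stage table (vertical log axis) at each stage from ESC to MAC (horizontal axis), 1 point per stage with both replicates combined and lines joining the points of a gene. Ctsl is the highest of the 7 at every stage and reaches 7629 FPKM in MAC, and Ctsk and Ctsh are at most at 1.30 FPKM before MAC, where they are at 22.3 and 17.1.

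Of the endopeptidases, *Ctsl* (chr13:64359337-64370890) was the most abundant gene of the group at every stage. Its level from ESC to HP was 28.8, 71.9, 72.6 and 41.5 FPKM, and in MAC it was 7629. It was called higher from ESC to MES by 1.29, one of 2 such genes of the 7 (6.95% of all genes tested were called higher), and lay 7.49 higher in MAC than in HP. Only *Spp1*, osteopontin, stood above it in MAC, so that its rank among all genes went from 746 in HP to 2. A processed pseudogene and an antisense gene overlap *Ctsl* in GENCODE, and whether reads were counted by strand is not given in the sources used here.

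*Ctsk* (chr3:95499256-95509362) encodes the collagen-degrading cathepsin by which osteoclasts resorb bone. It was at 0.0179, 0.0786, 0.0337 and 0.0762 FPKM in ESC, MES, HB and HP, and at 22.3 in MAC. It was thus close to 0 before MAC, where it ranked 3072. Of 7 osteoclast markers in the table, 4 had at least 1 FPKM in HP or MAC. Of these 4, 3 were called higher in MAC, beside 33.4% of all genes tested. They were *Atp6v0d2*, a proton pump subunit, at 590 FPKM in MAC, *Acp5*, the tartrate-resistant phosphatase, at 115, and *Dcstamp*, a fusion receptor, at 5.24. *Mmp9*, at 1.23 in MAC, was not called. In HP *Acp5* was at 7.25 FPKM. *Atp6v0d2*, *Dcstamp* and *Mmp9* were at 0, 0.354 and 0.126 there and entered the count only through MAC. *Oscar* was at 0.0968, *Ocstamp* at 0.281 and *Calcr*, the calcitonin receptor, at 0 in MAC. The summed level of these markers was at most 8.67 FPKM in the earlier stages and 712 in MAC, and their part in the level of *Ctsk* was not tested.

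*Lgmn* (chr12:102394084-102439813), the asparagine-specific endopeptidase that cuts other cathepsins into their mature chains, changed little before MAC. It was at 11.8, 10.1, 12.0 and 14.1 FPKM in ESC, MES, HB and HP and at 1527 in MAC, a log2 difference of 6.66 from HP. No other gene overlaps it, and in MAC it ranked 20.

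The carboxypeptidases showed the same low levels up to HP and high level in MAC. *Ctsz* (chr2:174427493-174439039), which takes single residues off the end of a chain, was at 25.8, 20.2, 26.9 and 28.9 FPKM up to HP and at 2075 in MAC, rank 12, a log2 difference of 6.12. *Ctsa* (chr2:164832873-164841032), which also shields neuraminidase 1 and beta-galactosidase from degradation, was at 8.46, 7.74, 8.26 and 10.3 FPKM up to HP and at 369 in MAC, a log2 difference of 5.03. Nearly all of *Ctsa* came from 1 of its 2 start site rows, 368.5 FPKM in MAC against 0.227 for the other. It shares bases with *Pltp* and *Neurl2* on the opposite strand, and these were at 17.7 and 2.73 FPKM in MAC.

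The aminopeptidases varied more before MAC. *Ctsc* (chr7:88278085-88310888), dipeptidyl peptidase I, which activates granule serine proteases, started at 4.81 FPKM in ESC, reached 17.9 in MES and 41.7 in HB, and was at 25.9 in HP and 147 in MAC. It was called higher from ESC to MES, by 1.70, and again from MES to HB, by 1.17, where it was the only one of the 7 and 2.53% of all genes tested were called higher. In HB it made up 25.6% of the summed FPKM of the 7 genes, and in MAC 1.25%, since its difference of 2.46 from HP was the smallest of the group. Without replicates a drop such as that from 41.7 to 25.9 FPKM cannot be set against any spread.

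*Ctsh* (chr9:90054152-90076089) is an aminopeptidase of low level in these cells. Up to HB it was at 0.240, 0.365 and 1.30 FPKM, then at 0.124 in HP and 17.1 in MAC. It was the 1 gene of the 7 called lower from HB to HP, by 1.04 on the log2 scale (-1.04), beside 8.79% of all genes tested, and that call rests on a level near 1 FPKM.

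**Figure D2:**
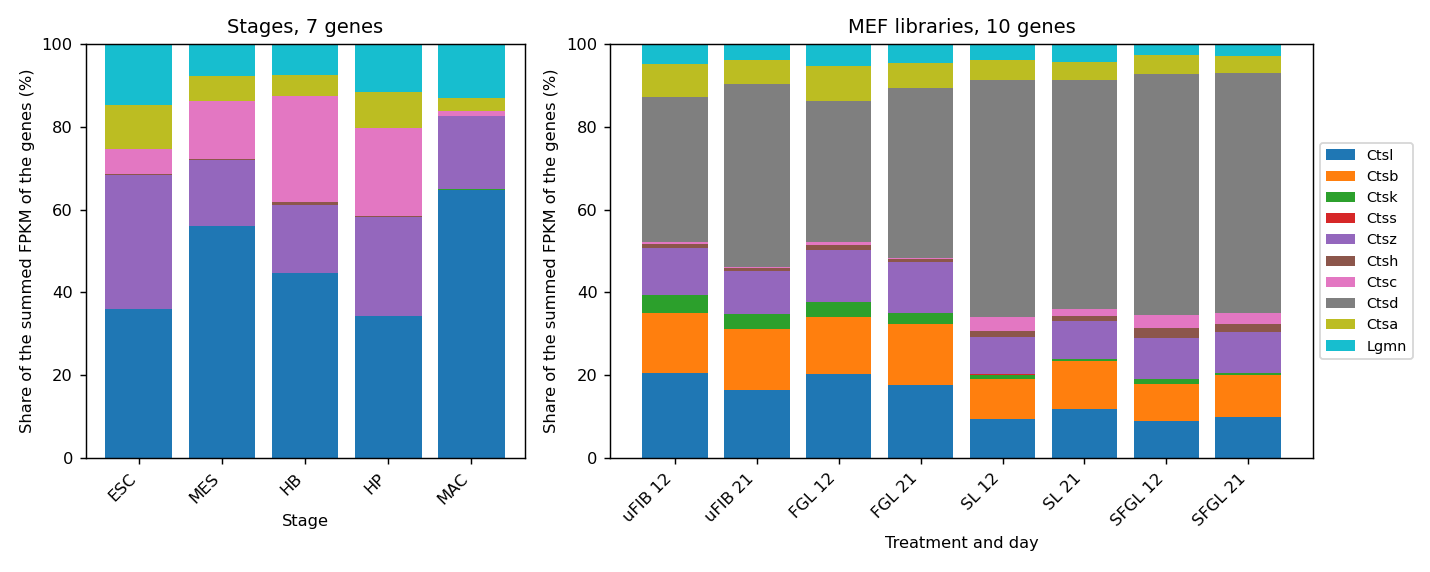
Share of each gene in the summed FPKM of the genes (vertical axis, percent), for the 5 stages with 7 genes on the left and for the 8 MEF libraries with 10 genes on the right, 1 bar per stage or library. Ctsl makes up 64.7% of the sum in MAC, and Ctsd 33.9% to 44.2% in the uFIB and FGL libraries and 55.4% to 58.3% in the SL and SFGL libraries.

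In untreated MEFs most of these genes were abundant, with 7 of the 10 at rank 931 or better among 20495 genes at day 12. The 10 genes summed to 1573 FPKM in uFIB at day 12 and 1851 at day 21, or 0.405% and 0.498% of all FPKM. In SL the sum was 1473 and 1363 FPKM and in SFGL 1429 and 1403, or 0.300% to 0.354% of all FPKM, and single genes lay on opposite sides of uFIB. Against uFIB of the same day, SL at day 12 had 1 gene called higher and 2 called lower of the 10, where 14.2% of all genes tested were called higher and 13.5% lower. SFGL at day 12 had 2 higher and 3 lower, against 14.7% and 17.0%. At day 21 SL had 1 higher and 1 lower, against 11.9% and 12.3%, and SFGL 2 higher and 2 lower, against 14.0% and 15.9%. With FGL 0 of the 10 were called on either day, where 3.26% of all genes tested at day 12 and 0.855% at day 21 were called in either direction. The comparisons of a day share their uFIB library.

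The libraries also differed in their levels of cell type markers, which in bulk samples do not tell cell numbers from RNA per cell. The summed level of 8 fibroblast markers (collagens, *Dcn*, *Lum*, *Pdgfra*, *Thy1*, *Postn*) was 6029 to 7952 FPKM in uFIB, 6091 to 6775 in FGL, and 1280 to 2641 in SL and SFGL, and all 8 were above 0 in every library. Of 8 neutrophil markers, all 8 were called higher in SL and SFGL than in uFIB on both days. Of all genes tested, 11.9% to 14.7% were called higher in these comparisons. In uFIB 5 of the 8 at day 12 and 1 at day 21 were under 1 FPKM, and these entered only through SL and SFGL. The sums were 9317 to 35986 FPKM in SL and SFGL against 13.1 and 248 in uFIB. FGL held 3186 at day 12 and 13.9 at day 21. The 5 mast cell markers summed to 143 to 289 FPKM in SL and SFGL and to under 1 FPKM in uFIB. The 12 macrophage markers in the table summed to 10.4 and 11.01 FPKM in uFIB, 35.0 and 8.48 in FGL, and 108 to 264 in SL and SFGL. Of the 12, 6 were tested with SL and 7 with SFGL on both days. *Emr1*, *Ptprc* and, with SFGL, *Csf1r* were under 1 FPKM in uFIB and were tested only through SL and SFGL. So were *Itgam* and *Mpeg1* at day 12. Of the tested markers, those called higher than in uFIB numbered 6 with SL and 7 with SFGL at day 12, and 5 and 6 at day 21. None was called lower, and 11.9% to 14.7% of all genes tested were called higher. The highest were *Itgam*, which encodes CD11b, at 52.8 to 156 FPKM in SL and SFGL, *Cd14* at 21.0 to 50.2 and *Cd68* at 14.3 to 30.1, while *Csf1r* was at most 1.92, and *C1qa* and *Fcgr1* were at most 0.146 FPKM in all 8 libraries. The part of these markers in the differences below was not tested.

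**Figure D3:**
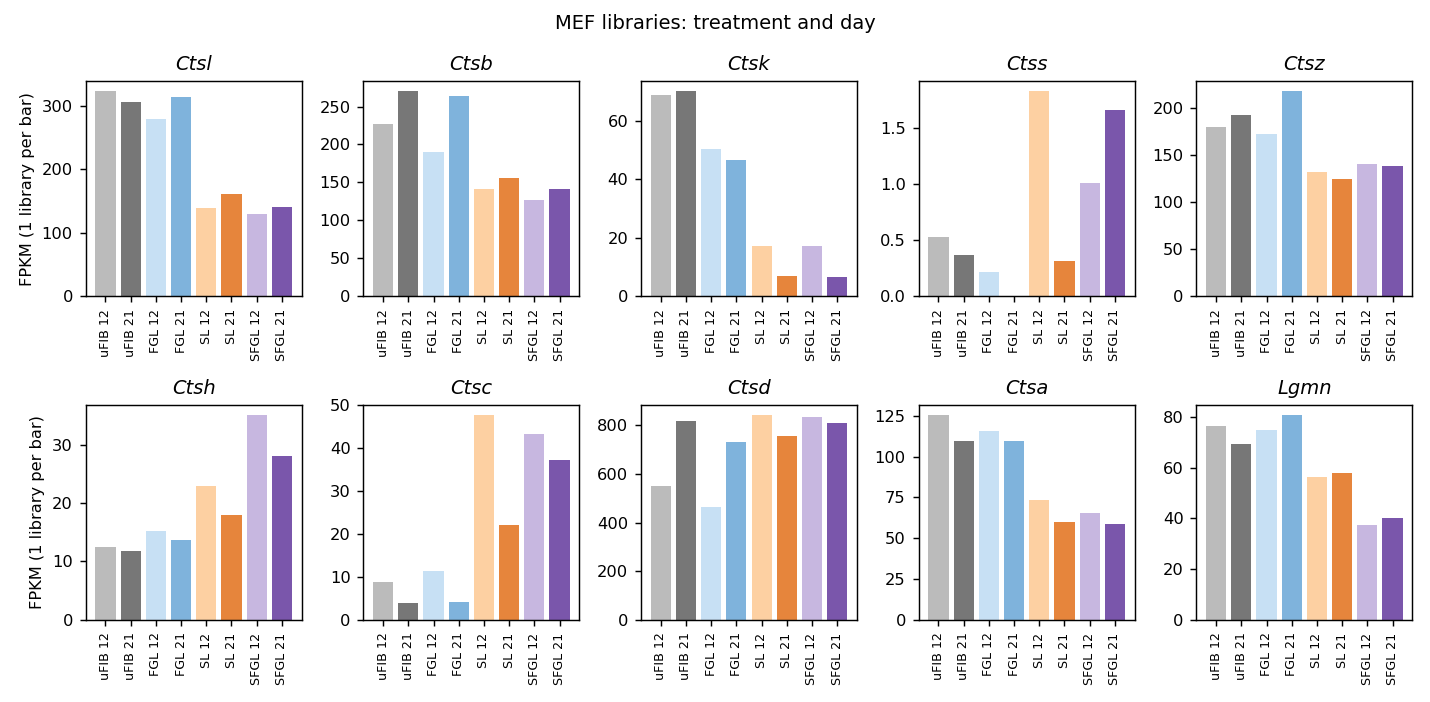
FPKM of each of the 10 genes (vertical axes, starting at 0 and scaled separately) in the 8 MEF libraries, 1 bar per library, named by treatment and day. In Ctsl, Ctsb, Ctsk, Ctsz, Ctsa and Lgmn the 4 SL and SFGL bars are below the 4 uFIB and FGL bars, and in Ctsc and Ctsh above them.

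In SL and SFGL *Ctsk* lay farthest below uFIB of the 10. It was at 69.1 and 70.2 FPKM in uFIB at day 12 and day 21, 50.3 and 46.8 in FGL, 17.1 and 7.05 in SL, and 17.2 and 6.51 in SFGL. The 4 SL and SFGL libraries lay below all others, and those of day 21 below those of day 12. The log2 differences from uFIB were -1.95 at day 12 with either mix, and -3.15 and -3.24 at day 21. Its neighbour *Ctss*, which trims the invariant chain in antigen-presenting cells, was at most 1.82 FPKM in the 8 libraries and listed at 0 in FGL at day 21.

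*Ctsl* was at 323 and 305 FPKM in uFIB, 278 and 314 in FGL, 138 and 162 in SL, and 129 and 140 in SFGL. It was called lower in SL at day 12 (-1.22) and in SFGL on both days (-1.32 and -1.12), and in SL at day 21 it lay just inside the limit (-0.91). *Ctsb* (chr14:63122462-63145923), a cysteine cathepsin that also clips the ends of chains, was at 227 and 270 FPKM in uFIB, 190 and 264 in FGL, 142 and 156 in SL, and 127 and 141 in SFGL. Its differences of -0.68 to -0.93 in SL and SFGL stayed under the limit.

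*Lgmn* was lower in SFGL than in SL on both days. It was at 76.6 and 69.5 FPKM in uFIB, 74.7 and 80.8 in FGL, 56.3 and 57.9 in SL, and 37.6 and 40.2 in SFGL. It was called lower in SFGL at day 12 (-1.01) and not in SFGL at day 21 (-0.78) or in SL (-0.44 and -0.26). Set directly against SL, SFGL differed by -0.57 and -0.52 on the 2 days, which is under the limit.

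*Ctsa* was at 126 and 110 FPKM in uFIB, 116 and 109 in FGL, 73.3 and 60.0 in SL, and 65.4 and 58.6 in SFGL, and its differences of -0.77 to -0.93 in SL and SFGL did not reach 2-fold. *Pltp*, which overlaps it, went from 65.7 and 68.1 FPKM in uFIB to between 17.6 and 29.8 in these libraries. *Ctsz* was at 179 and 192 FPKM in uFIB, 172 and 218 in FGL, 132 and 125 in SL, and 140 and 138 in SFGL, with differences of -0.35 to -0.62 in SL and SFGL. These exopeptidases thus lay on the same side of uFIB as *Ctsl*, by smaller amounts.

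*Ctsd* (chr7:142375911-142388038), the aspartic endopeptidase, was the most abundant of the 10 in every library. It was at 550 and 818 FPKM in uFIB, 466 and 732 in FGL, 843 and 755 in SL, and 834 and 812 in SFGL. The groups overlapped at day 21, and the untreated libraries of the 2 days differed by 0.57, about as much as SL and SFGL differed from uFIB at day 12 (0.61 and 0.60). It was not called in any of these comparisons, and a protein-coding gene model, *Gm49369*, overlaps it on the same strand.

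*Ctsc* was the highest of the 10 relative to uFIB. It was at 8.91 and 3.84 FPKM in uFIB, 11.3 and 4.18 in FGL, 47.8 and 22.0 in SL, and 43.3 and 37.3 in SFGL. The differences from uFIB were 2.30 (SL) and 2.16 (SFGL) at day 12, and 2.25 and 2.98 at day 21. Against the uFIB library of day 12, chosen after the neutrophil genes in that of day 21 were seen, those of day 21 were 1.22 and 1.95. *Ctsh* was at 12.4 and 11.7 FPKM in uFIB, 15.2 and 13.7 in FGL, 22.9 and 17.9 in SL, and 35.1 and 28.0 in SFGL, and was called higher in SFGL on both days (1.42 and 1.19) and not in SL (0.83 and 0.57).

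**Figure D4:**
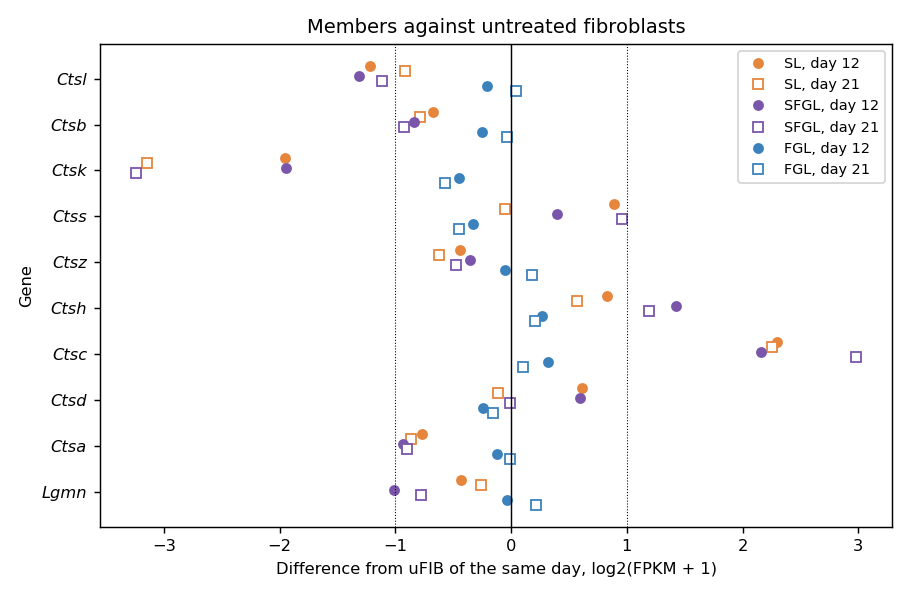
Difference of each of the 10 genes from uFIB of the same day on log2(FPKM + 1) (horizontal axis; genes on the vertical axis) in SL, SFGL and FGL, with filled circles for day 12 and open squares for day 21, 1 library against 1 library. Dotted lines mark the 2-fold limit: Ctsk lies at -1.95 to -3.24 and Ctsc at 2.16 to 2.98 in SL and SFGL, and all FGL points lie inside the lines.

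Between the days, *Ctsc* was called lower at day 21 than at day 12 in uFIB (-1.03), FGL (-1.25) and SL (-1.08) and was at -0.21 in SFGL. It was the only such gene in uFIB, where 1.27% of all genes tested were called lower, and in FGL, where 4.06% were. In SL 3 of the 10 were called lower, *Ctsk* (-1.17) and *Ctss* (-1.10) besides *Ctsc*, against 2.93% of all genes tested; *Ctss* had at least 1 FPKM only at day 12 there. In SFGL it was *Ctsk* alone (-1.28), against 2.75%. The addition of *Fli1* and *Gata2* to SL, asked by setting SFGL against SL of the same day, gave 0 calls among the 10 at day 12 (0.839% of all genes tested called in either direction) and 1 at day 21 (1.21%), *Ctss*, at 1.66 against 0.313 FPKM, which passed the 1 FPKM minimum only through SFGL. At day 12 *Fli1* itself was at 46.7 FPKM in SL and 41.2 in SFGL, and *Gata2* at 68.8 and 110. Of the 4 factor genes of the mixes 0 were called in that comparison, and at day 21 1 was called higher and 1 lower.

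Among the natural inhibitors of cysteine cathepsins, the secreted cystatin C gene *Cst3* and the cytosolic *Cstb* were the abundant ones in the stages. *Cst3* was at 53.7 FPKM in HP and 1421 in MAC, and *Cstb* at 36.4 and 579. Of 9 inhibitors, 6 had at least 1 FPKM in HP or MAC. Of these 6, 4 were called higher in MAC and 0 lower, beside 33.4% of all genes tested called higher. The other called ones were the stefins *Stfa2* and *Stfa2l1*, at 0 in HP and at 1.12 and 2.79 FPKM in MAC. The ratio of the summed FPKM of the 7 proteases to that of *Cst3* and *Cstb* was 1.18, 0.905, 1.25 and 1.34 from ESC to HP, and 5.89 in MAC. In the MEFs *Stfa2*, *Stfa2l1*, *Stfa3* and *Cst7*, cystatin F of immune cell granules, differed most between SL or SFGL and uFIB. *Stfa2* was at 0 and 6.39 FPKM in uFIB, 108 and 0 in FGL, 891 and 226 in SL, and 600 and 180 in SFGL, and *Cst7* at 0.0701 and 0.686 in uFIB and 42.9 to 104 in SL and SFGL. Of the 9 inhibitors, 6 were tested at day 12 and 7 at day 21, with SL and with SFGL alike. On both days 4 were called higher with SL and with SFGL, and 1, *Cst3*, was called lower, in SL at day 21 (-1.06). Of all genes tested, 11.9% to 14.7% were called higher in these comparisons. The stefin A genes are near-identical copies of each other, so that their reads may have been divided between them.

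A further list held genes that carry these enzymes to the lysosome and partners of the enzymes there. Of its 7 genes in the stage table, 6 were called higher in MAC than in HP, beside 33.4% of all genes tested. The median difference of the 7 was 2.39 against 0.45 over all genes tested. *Sort1*, a sorting receptor, was at 8.04 FPKM in HP and 74.7 in MAC, and *Neu1*, the neuraminidase held by cathepsin A, at 5.60 and 47.3. *Nagpa*, which uncovers the mannose 6-phosphate tag, was at 4.82 and 31.2, and *Gnptg*, a subunit of the enzyme that adds it, at 3.58 and 22.9. *Igf2r*, the larger mannose 6-phosphate receptor, was the 1 not called, at 38.8 and 40.1 FPKM. In SL 2 of 8 genes of this list, *Neu1* and *Sort1*, were called higher at day 12, and 1 higher and 1 lower at day 21. In SFGL 1 was called higher, *Neu1*, and 1 lower at day 12, and 2 lower at day 21. Of all genes tested, 11.9% to 14.7% were called higher and 12.3% to 17.0% lower in these comparisons. *Neu1* was at 10.7 and 9.50 FPKM in uFIB, 32.7 and 21.5 in SL, and 38.7 and 19.8 in SFGL, while *Ctsa*, its partner, was lower in these libraries than in uFIB.

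All 4 MiT/TFE genes were called higher in MAC than in HP, beside 33.4% of all genes tested. *Tfec* was at 5.49 FPKM in HP and 86.8 in MAC, *Mitf* at 0.870 and 30.3, *Tfeb* at 1.40 and 29.2, and *Tfe3* at 4.44 and 15.2. In SL and SFGL *Tfec* was the only one of the 4 called against uFIB on either day, at 6.31 to 15.9 FPKM against 0.347 and 0.776. Of all genes tested, 11.9% to 14.7% were called higher in these comparisons with uFIB.

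Of the substrates, *Cd74*, the invariant chain that cathepsins S and L trim, was at 0.143 FPKM in HP and 97.1 in MAC, and at most 1.81 in the MEF libraries. Of the granule serine proteases that *Ctsc* activates, *Elane* was at 0.0306, *Ctsg* at 0, *Gzmb* at 0.395 and *Prtn3* at 1.55 FPKM in MAC, while *Ctsc* itself was at 147 there. In HP *Elane* was at 1.52 and *Prtn3* at 7.91 FPKM, and both were called lower in MAC. Of 3 substrates tested from HP to MAC, 1 was called higher and 2 lower, beside 33.4% and 13.9% of all genes tested. In the MEFs 4 of the 6 substrates were called higher than in uFIB with SL and with SFGL on both days, beside 11.9% to 14.7% of all genes tested. *Elane* was at 239 to 607 FPKM, *Prtn3* at 313 to 808, *Ctsg* at 345 to 509 and *Gzmb* at 26.9 to 56.3 in SL and SFGL, where *Ctsc* was also called higher. *Gzma*, a further granule protease of the list, was at 0 in SL at day 12 and in SFGL on both days. In FGL at day 12, where *Ctsc* was at 11.3 FPKM against 8.91 in uFIB, *Elane* was at 45.5 and *Ctsg* at 31.9.

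Of 14 further cathepsin genes, 3 had at least 1 FPKM in HP or MAC. Of these 3, 2 were called higher in MAC, beside 33.4% of all genes tested. They were *Ctsf*, at 35.8 FPKM in MAC against 1.41 in HP, and *Ctso*, at 15.5 against 1.73. The same 2 genes were lower in the reprogrammed MEFs: *Ctsf* was at 28.4 and 29.1 FPKM in uFIB and 8.21 to 13.5 in SL and SFGL, and *Ctso* at 9.84 and 11.8 and at 3.08 to 4.57, with *Ctso* in SL at day 12 (-0.96) the 1 of these 8 differences inside the limit. *Ctse*, an aspartic protease of blood and gut cells, was at 0 and 0.0797 FPKM in uFIB, 13.9 and 50.01 in SL, and 23.8 and 80.2 in SFGL, and at 9.90 in HP and 14.6 in MAC. Of the 14, 4 were tested in each comparison of SL or SFGL with uFIB. In each, 2 were called higher, and 2 lower except for 1 in SL at day 12. Of all genes tested, 11.9% to 14.7% were called higher and 12.3% to 17.0% lower. The placental cathepsins (*Ctsj*, *Ctsm*, *Ctsq*, *Ctsr*, *Cts3*, *Cts6*, *Cts7*, *Cts8*) were at or near 0 in all stages and libraries.

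For 7 of the genes, the most similar profiles were sought among 5637 others with at least 10 FPKM in each table, by Pearson's r on log2(FPKM + 1) over the 5 stages and over the 8 libraries separately. The lower of both r was highest for *Ginm1*, *Sh3pxd2b* and *Acp2*, a lysosomal phosphatase, with *Ctsl* (0.996 and 0.997, 0.992 and 0.993, 0.996 and 0.989). For *Ctsk* they were *Nov*, *Ifi27l2a* and *Glt25d1*, with *Nov* at 0.999 and 0.989, and for *Ctsa* they were *Anxa5*, *Rin2* and *Angptl2*, with *Anxa5* at 0.993 and 0.997. For *Lgmn* they were *Maf*, *Rap2a* and *Ndst1*, with *Maf*, a transcription factor of macrophages, at 0.998 and 0.974. *Ctsz* was most like *Mrpl27*, *AI607873* and *Pld3*, *Ctsc* like *Snd1*, *Gapvd1* and *Prpf18*, and *Ctsh* like *Hcst*, *Asnsd1* and *Lat2*. The points share their libraries, the 5 stages are dominated by MAC, and these r are descriptions over few points.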

How the data were processed

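RNA-seq of 10 samples of 5 ESC-derived stages (2 replicates each) and of 8 single MEF libraries was used. The authors deposited FPKM values, 1 per transcription start site and stage with the replicates combined, and 1 per gene and MEF library. Per the study's procedures the stage reads were aligned to mm10 with SHRiMP, only unique alignments were kept, duplicates were removed with Picard and Cufflinks was run on RefSeq genes. The submitters' notes list TopHat and Cufflinks for the MEFs; versions and strand settings are not given in the sources used here. Removing duplicates can lower the highest values. A further 1 column of stage values (HE) had no sample here and was not used.

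Start sites were summed per gene, and levels were compared only within a table, as the tables were normalized separately. Differences used a pseudocount of 1, a limit of 2-fold and at least 1 FPKM in the higher group. No test was run: the stages have no replicate values, and a fit of the MEFs that takes both days of a treatment as its replicates was not made. The counting code was checked on values changed by known factors, which checks the code only. The genes named were the 10 members and, of the lists described, up to 4 genes of at least 10 FPKM with the largest differences, with markers at or near 0. Lists were given by counts or by summed levels. *Csf1r*, *Emr1*, *Mpeg1*, *Ptprc*, *Dcstamp*, *Mmp9*, *Pltp*, *Neurl2*, *Igf2r*, *Cstb*, *Cst7*, *Gzma*, *Gzmb*, *Tfe3* and *Spp1* and the stage markers and transgenes were added after values were seen. Members and lists were chosen with earlier results of these data known. Positions are of GENCODE M21 on GRCm38, counted from 1. Scripts ran under Python 3.11.15 with pandas 2.3.3, NumPy 2.4.6 and matplotlib 3.10.9.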

Additional observations from a re-analysis of the deposited data

Results flagged for a closer look

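Some genes lay on opposite sides of uFIB on the 2 days, with a difference of at least 1.5-fold on 1 of them; these differences between days were not tested, as each rests on 1 library per condition. *Ctsd* in SL was 0.61 above uFIB at day 12 and differed by -0.115 at day 21 on log2(FPKM + 1). *Ctsd* in SFGL was 0.60 above uFIB at day 12 and differed by -0.011 at day 21. The 4 SL and SFGL libraries were at 755 to 843 FPKM, while uFIB was at 550 FPKM at day 12 and 818 at day 21, so that the reference differed more between the days than the treated libraries did. *Ctss* in SL was 0.89 above uFIB at day 12 and differed by -0.056 at day 21, with all levels at or below 1.82 FPKM.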

How the results depend on the processing

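No paired analysis was possible because neither table holds replicate columns, and for the same reason no replicate could be left out. Of 470 recomputed differences of single genes, 433 moved by under 1.5-fold, 37 by more and 0 of those past 2-fold changed sign. Under scaling to the same upper quartile or FPKM total, 5 differences under 2-fold changed sign (*Ctsa* and *Ctsl* from MES to HB, and *Ctsl* at day 21 and *Ctsz* and *Lgmn* at day 12 in FGL). The counts from HP to MAC (7) and for FGL (0 on both days) were the same under every alternative run. The share of all genes past the limit also moves with these settings and is not set beside the counts that follow. Those counts describe the members only and cannot be read against all genes. With a 1.5-fold limit the number of members past the limit in either direction became 2 from MES to HB and 3 from HB to HP. It became 8 for SL and 8 for SFGL at day 12, and 6 for SL and 8 for SFGL at day 21. With a 4-fold limit it became 0 from ESC to MES, from MES to HB and from HB to HP, 1 for SL and 1 for SFGL at day 12, and 2 for SFGL at day 21. A pseudocount of 0.1 or 0.001 gave 2 from MES to HB, the added gene being *Ctsh* (1.59 and 1.83), and 4 in SL at day 12 and 5 in SFGL at day 21 against 3 and 4, the added gene being *Ctss*. A minimum of 10 FPKM gave 0 from HB to HP. On the same FPKM total SFGL had 7 genes past the limit at day 12 and 6 at day 21, against 5 and 4, and SL had 4 at day 12 against 3. With the average of uFIB over the days as the reference, SFGL had 4 at day 12. With uFIB of day 12 as the reference, chosen after the data were seen, SL had 3 and SFGL 5 at day 21, against 2 and 4. FPKM hold no read numbers, so that the counting error of low genes such as *Ctss* and *Ctsh* is unknown.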
